A study of Mus musculus with 4 samples.

Results

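The nuclear genes of respiratory complexes II to V were taken from a table of gene expression in mouse ventricle by their symbols: Sdha to Sdhd, symbols that begin with Uqcr, Cyc1, Cycs, Cox4 to Cox8 and Atp5. The symbols matched 49 of the 23847 rows, of which 4 belonged to complex II, 9 to complex III, 1 to cytochrome c, 18 to complex IV and 17 to complex V. The rule used names and no measured value, but the members were chosen with earlier results of these data known. The 4 RNA-seq libraries came from ventricles of male mice at postnatal day 21, namely 2 libraries with heart-restricted overexpression of Cdk8 (Cdk8Tg) and 2 wild-type libraries (WT), on the C57BL/6 background throughout. Cdk8 is a kinase that associates with the Mediator complex of RNA polymerase II transcription. Neither the promoter that drives the transgene nor the number of founder lines is stated in the labels. Since no label states that the libraries are from different animals, a p-value here covers the spread among these 4 libraries alone, and that spread may be technical.

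Complex II (succinate dehydrogenase) passes electrons from succinate to ubiquinone, complex III (the cytochrome bc1 complex) passes them to cytochrome c, and complex IV (cytochrome c oxidase) passes them to oxygen. Complexes III and IV build the proton gradient that complex V (ATP synthase) uses to make ATP, on which the beating heart depends. Several small subunits of complex IV exist as a general isoform and as a heart and skeletal muscle isoform that takes over in striated muscle during development. The subunits that the mitochondrial genome encodes are not analysed here.

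Levels were FPKM, fragment counts divided by transcript length and library depth, so they can be set side by side between genes. Differences are log2 changes of FPKM + 1 (Cdk8Tg minus WT), and their SE comes from limma. A gene was called at a Benjamini-Hochberg adjusted p under 0.05 over the 11888 rows with a mean of at least 1 FPKM. The FPKM columns summed to 448495 and 440324 in the Cdk8Tg libraries, against 510844 and 508247 in the WT libraries, and the labels do not say how they were scaled. Cdk8 itself stood at 7309 and 8122 FPKM in Cdk8Tg against 7.89 and 9.86 FPKM in WT. The 7 markers of ventricular cardiomyocytes summed to 36489 and 35136 FPKM in Cdk8Tg and 54728 and 52409 FPKM in WT, with 5 of 7 called lower. Markers of skeletal muscle summed to 1.21 and 1.92 FPKM in Cdk8Tg and 1.33 and 1.09 FPKM in WT, with Myod1, Myf5 and Myf6 at 0 in every library.

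Most genes of complexes II to V were lower in the Cdk8Tg ventricles. Of the 46 members that passed the filter, 36 were called lower, 1 was called higher and 9 were not called, with a median log2 change of -0.69 (0.620-fold). Over all tested genes, 7.98% were called lower and 16.9% higher, with a median log2 change of 0.13. In 41 of the 46 members both Cdk8Tg libraries lay below both WT libraries, which held for 21.1% of all tested genes. Only 3 members fell under the filter, the testis isoforms Cox6b2, Cox7b2 and Cox8c. Cox6b2 had 0.999 and 0.273 FPKM in Cdk8Tg and 1.92 and 0.693 FPKM in WT. Cox7b2 had 1.05 and 0.212 FPKM in Cdk8Tg and was listed at 0 in WT, as was Cox8c in all 4 libraries.

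Abundant genes as a class were called lower more often than others. Among the 629 tested genes with a mean of at least 100 FPKM, 35% were called lower, and the median log2 change was -0.20. In 368 of these 629 genes both Cdk8Tg libraries lay below both WT libraries, so such separation was common at this level. The members at that level numbered 43, of which 36 were called lower. The genes whose symbols begin with Nduf, mostly subunits and assembly factors of complex I, gave 35 called lower and 0 called higher of 45, with a median log2 change of -0.57. The 7 ventricular markers were also lower, but unevenly, with log2 changes from -1.75 (Tnni3) to -0.19 (Actc1, not called). With quantile normalization 2 of these markers were called lower and 1 higher, and with median-of-ratios scaling 6 lower and 0 higher. The summed FPKM of the 49 members divided by that of the 7 ventricular markers was 1.07 and 0.951 in Cdk8Tg, against 1.06 and 1.12 in WT. The 7 fibroblast markers summed to 1043 and 1302 FPKM in Cdk8Tg, against 861 and 806 FPKM in WT, with 5 called higher. With median-of-ratios scaling 3 of the fibroblast markers were called higher, and with quantile normalization 4. Of 7 endothelial markers 0 were called, also at an unadjusted p under 0.05, and among 6 tested leukocyte markers 1 (Csf1r) was called lower. In bulk tissue, fewer cells of a type and less RNA per cell cannot be told apart, and the part of cell makeup in the members' fall was not tested.

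**Figure D1:**
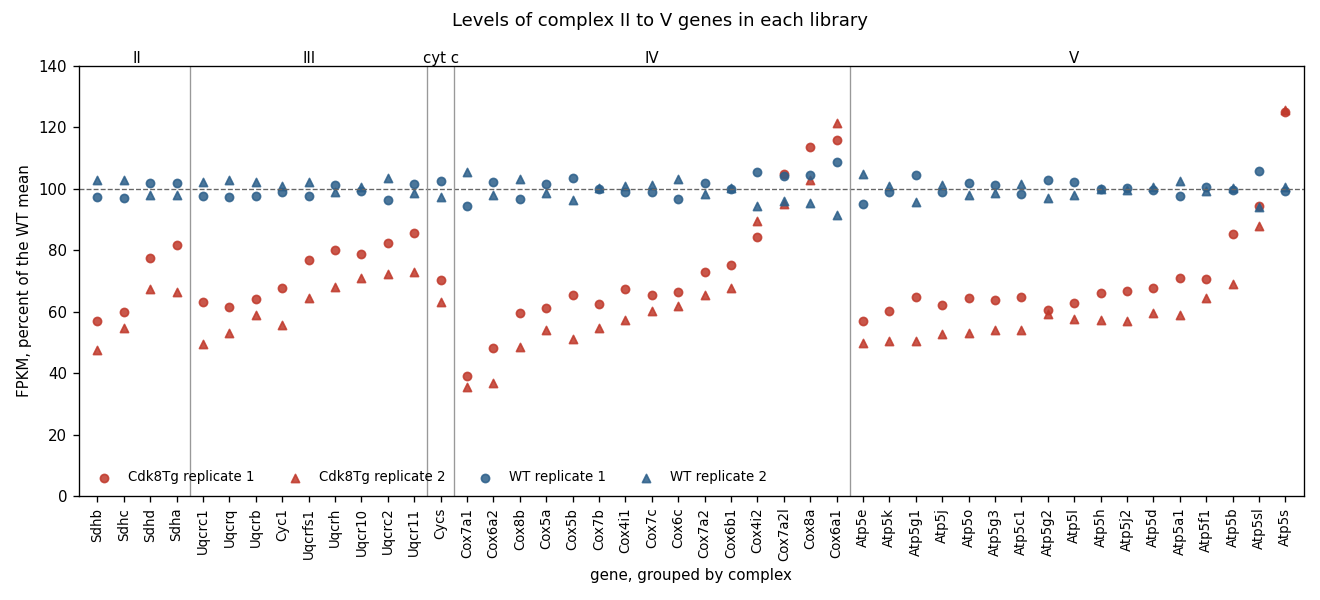
FPKM of the 46 tested members in each library, as a percent of the WT mean of that gene (vertical axis), grouped by complex along the horizontal axis. Red symbols are Cdk8Tg and blue symbols WT, with circles for replicate 1 and triangles for replicate 2. In 41 members both Cdk8Tg libraries lie below both WT libraries, and Atp5s and Cox6a1 lie above.

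Summed over members, complexes II to V made up 8.70% and 7.59% of all FPKM in the Cdk8Tg libraries, against 11.4% and 11.5% in the WT libraries. The ratio of the summed FPKM, Cdk8Tg over WT, was 0.632 for complex II, 0.691 for complex III, 0.584 for complex IV and 0.623 for complex V. The groups did not overlap in any of the 4 sums. Cdk8Tg replicate 1 lay above Cdk8Tg replicate 2 in 43 of the 46 tested members, whereas WT replicate 1 lay above WT replicate 2 in 21. Nearly every member was thus lowest in Cdk8Tg replicate 2.

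**Figure D2:**
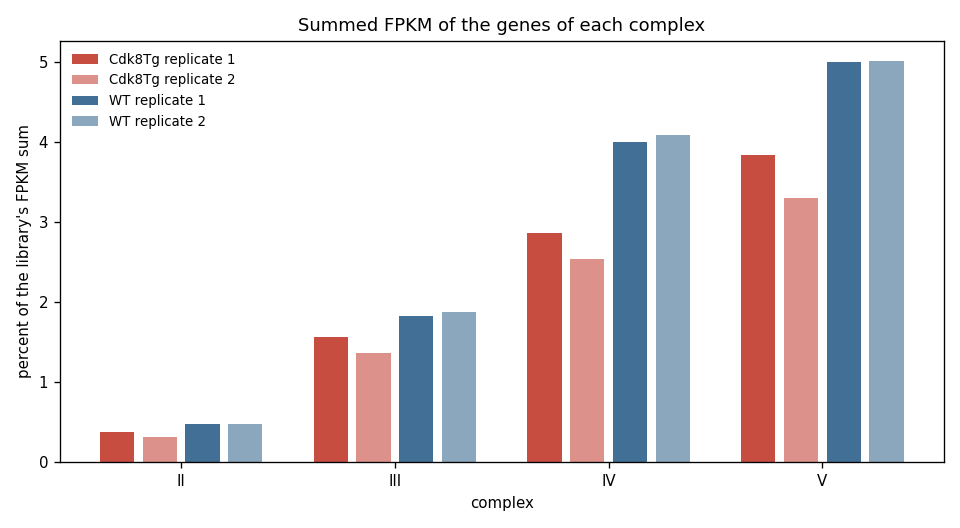
Summed FPKM of the genes of complexes II, III, IV and V in each library, as a percent of that library's FPKM sum. Red bars are the Cdk8Tg libraries and blue bars the WT libraries. Each complex is lower in both Cdk8Tg libraries than in both WT libraries.

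The clearest contrast lay within complex IV, between muscle and general isoforms of the same subunit. Cox6a2, the muscle isoform of subunit 6a, lies at chr7:128205435-128206387 on the minus strand of GRCm38. Cox7a1, the muscle isoform of subunit 7a, lies at chr7:30184144-30186078 on the plus strand. Cox8b, the muscle isoform of subunit 8, lies at chr7:140898945-140900446 on the minus strand. Their general counterparts Cox6a1, Cox7a2 and Cox8a are on chromosomes 5, 9 and 19. The 250 bases before the RefSeq start (GRCm38.p6) are shown for the 5 of these 6 genes with an entry in the RefSeq promoter table, because the isoforms of a pair can be compared there. Letters run 5′ to 3′ on the gene's strand, and capitals mark matches to the motifs searched.
Cox7a1: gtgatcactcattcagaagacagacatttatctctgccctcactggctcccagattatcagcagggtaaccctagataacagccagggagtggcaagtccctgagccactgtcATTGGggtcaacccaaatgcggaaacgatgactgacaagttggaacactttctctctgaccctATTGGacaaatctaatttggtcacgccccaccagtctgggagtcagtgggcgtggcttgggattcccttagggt
Cox7a2: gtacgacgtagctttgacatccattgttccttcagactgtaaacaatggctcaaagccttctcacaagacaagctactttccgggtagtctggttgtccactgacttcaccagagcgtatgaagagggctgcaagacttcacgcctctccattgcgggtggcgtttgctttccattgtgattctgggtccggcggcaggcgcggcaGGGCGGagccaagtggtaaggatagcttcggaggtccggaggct
Cox8b: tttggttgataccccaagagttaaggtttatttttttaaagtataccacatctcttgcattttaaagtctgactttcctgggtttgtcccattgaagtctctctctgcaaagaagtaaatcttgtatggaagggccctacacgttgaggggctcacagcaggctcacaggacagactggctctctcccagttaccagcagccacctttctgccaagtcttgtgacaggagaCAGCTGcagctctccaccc
Cox8a: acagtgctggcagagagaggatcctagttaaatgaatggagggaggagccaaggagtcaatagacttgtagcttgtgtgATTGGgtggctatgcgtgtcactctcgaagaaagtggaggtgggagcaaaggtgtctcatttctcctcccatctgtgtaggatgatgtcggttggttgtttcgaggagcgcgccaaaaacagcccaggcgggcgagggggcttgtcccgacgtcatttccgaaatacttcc
Cox6a1: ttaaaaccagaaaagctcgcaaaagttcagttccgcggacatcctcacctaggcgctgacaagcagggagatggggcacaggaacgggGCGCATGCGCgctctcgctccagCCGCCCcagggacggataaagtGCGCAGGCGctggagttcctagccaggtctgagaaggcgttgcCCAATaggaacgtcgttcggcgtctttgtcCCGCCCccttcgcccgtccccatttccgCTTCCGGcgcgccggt
These windows are chr7:30183921-30184170 on the plus strand for Cox7a1 and, all on the minus strand, chr9:79759854-79760103 for Cox7a2, chr7:140900447-140900696 for Cox8b, chr19:7217617-7217866 for Cox8a and chr5:115348959-115349208 for Cox6a1. Exact matches were counted on both strands for 9 motifs, each spelled out with its share of windows in the next paragraph. Cox6a1 held 7 matches, to the NRF1-type, ETS-type, Sp1-type and CCAAT motifs, of which 2 of the NRF1-type overlap as a palindrome. Cox7a1 held 2 CCAAT motifs, Cox8a 1 CCAAT motif, Cox7a2 1 Sp1-type motif and Cox8b 1 E-box. These matches describe letters in a window and are not shown to be bound.

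Among the 38 members with a window, the NRF1-type, ETS-type and CCAAT motifs had a larger share than among all 27025 promoters, with no test made. The NRF1-type motif GCGCANGCG was in 21.1% of member windows and 5.33% of all windows. The ETS-type motif CCGGAAG, bound by GABPA, was in 21.1% of member windows and 7.05% of all windows. The CCAAT box, read as CCAAT, was in 57.9% of member windows and 34.5% of all windows. For 2 further motifs the shares were close. The Sp1-type motif GGGCGG was in 31.6% of member windows and 32.9% of all windows, and the ERR-type motif AAGGTCA was in 5.26% of member windows and 4.05% of all windows. The E-box CAGCTG was in 5.26% of member windows and 12.8% of all windows, and the TATA-type motif TATAAA was in 5.26% of member windows and 13% of all windows. No member window held the letters of the YY1-type motif AAGATGG, found in 4.53% of all windows, or those of the MEF2-type motif TAAAAATA, found in 2.48% of all windows. The members' windows had a median GC content of 54.2%, against 52% over all windows.

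Cox7a1 had 1095 and 991 FPKM in Cdk8Tg and 2645 and 2955 FPKM in WT. That was the largest fall among the members, with a log2 change of -1.42 ± 0.12 (SE, adjusted p = 0.0041). Its general counterpart Cox7a2 had 430 and 384 FPKM in Cdk8Tg and 599 and 578 FPKM in WT, a log2 change of -0.53 ± 0.10 (adjusted p = 0.020). Neither gene's groups overlapped, and both isoforms of subunit 7a were called lower.

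Cox6a2 had 1164 and 890 FPKM in Cdk8Tg and 2465 and 2364 FPKM in WT, a log2 change of -1.25 ± 0.15 (adjusted p = 0.0082). Cox7a1 and Cox6a2 were the only members called with a log2 change of at least 1 in size. The general isoform Cox6a1 had 240 and 251 FPKM in Cdk8Tg and 225 and 189 FPKM in WT, a log2 change of 0.25 ± 0.11 that was not called (adjusted p = 0.15). Both Cdk8Tg libraries lay above both WT libraries for Cox6a1. An exon of Itgad overlaps Cox6a2 on the other strand, and the labels do not give the strand setting of the authors' quantification.

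Cox8b had 973 and 793 FPKM in Cdk8Tg and 1579 and 1684 FPKM in WT, a log2 change of -0.89 ± 0.13 (adjusted p = 0.013). The general isoform Cox8a had 395 and 357 FPKM in Cdk8Tg and 363 and 332 FPKM in WT, a log2 change of 0.11 ± 0.10 that was not called (adjusted p = 0.43). The groups overlapped for Cox8a and not for Cox8b. With median-of-ratios scaling the sign for Cox8a turned to -0.04, and with quantile normalization it was called higher at 0.38 (adjusted p = 0.035). The sign for Cox6a1 was positive under all 3 other scalings, and with equal FPKM sums it was called higher (0.45, adjusted p = 0.024), as Cox8a was (0.31, adjusted p = 0.044).

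The ratio of the muscle to the general isoform within a library is free of the scaling between libraries. Cox6a2 made up 82.9% and 78.0% of the summed FPKM of Cox6a2 and Cox6a1 in Cdk8Tg, against 91.6% and 92.6% in WT. Cox7a1 made up 71.8% and 72.1% of its pair in Cdk8Tg, against 81.5% and 83.6% in WT. Cox8b made up 71.1% and 68.9% of its pair in Cdk8Tg, against 81.3% and 83.5% in WT. The muscle isoform remained the more abundant of each pair in every library, and its share was lower in both Cdk8Tg libraries than in both WT libraries in each pair.

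The log2 ratio of muscle to general isoform differed by -1.50 ± 0.25 for subunit 6a, -0.89 ± 0.11 for subunit 7a and -1.01 ± 0.13 for subunit 8 (Cdk8Tg minus WT, SE of the difference, n = 2 per group). Each gave p = 0.333 in a two-sided exact permutation test, the smallest p that 2 against 2 libraries allow, so this test could not pass 0.05. Quantile normalization, which changes genes within a library by rank, gave differences of -1.07, -0.71 and -0.87. The muscle isoforms together had 3231 and 2674 FPKM in Cdk8Tg and 6689 and 7004 FPKM in WT. The general isoforms together had 1065 and 993 FPKM in Cdk8Tg and 1187 and 1099 FPKM in WT. Per subunit, the pair's summed FPKM in Cdk8Tg was 0.485 of that in WT for 6a, 0.428 for 7a and 0.636 for 8, and the general isoforms did not make up the fall.

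**Figure D3:**
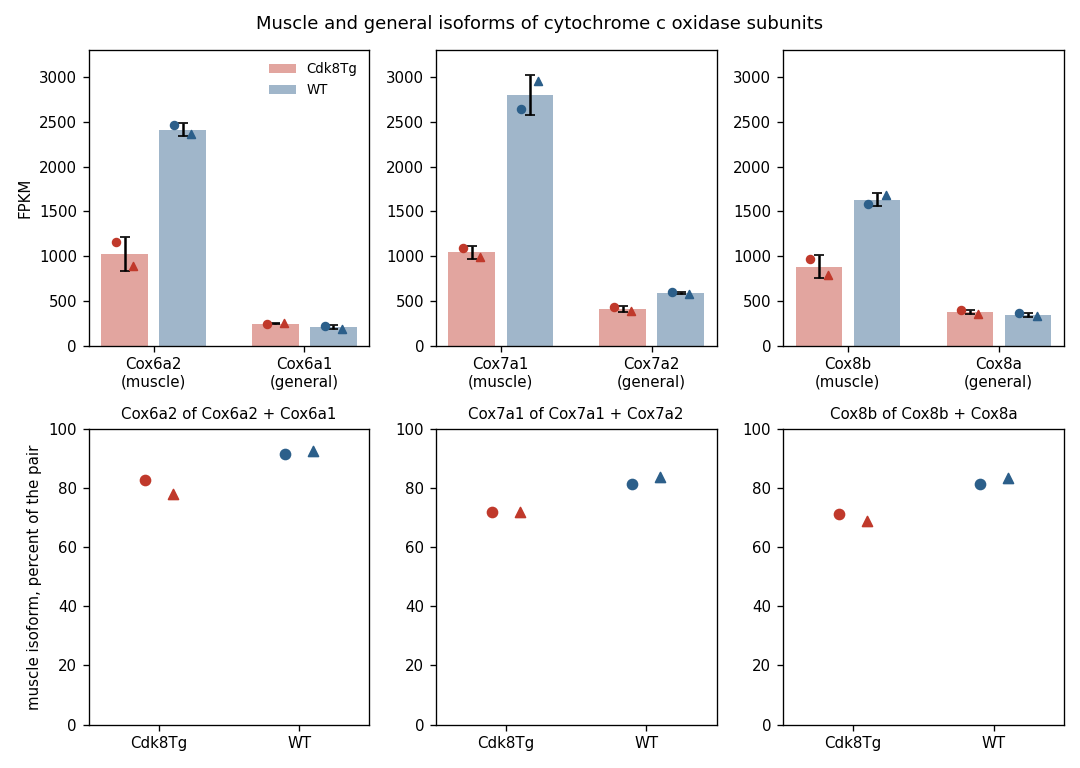
Upper row: FPKM of the muscle and the general isoform of complex IV subunits 6a, 7a and 8, with bars for the mean, error bars for the SD (n = 2) and symbols for single libraries. Lower row: the muscle isoform's percent of the pair in each library. In all 3 pairs the Cdk8Tg libraries (red) have a smaller muscle isoform percent than the WT libraries (blue).

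Brown fat also expresses Cox7a1 and Cox8b, and several fat markers stood out in 1 library. Ucp1, the uncoupling protein of brown fat, had 10.7 FPKM in Cdk8Tg replicate 2 and was listed at 0 in Cdk8Tg replicate 1 and in both WT libraries. Adipoq (3.08 FPKM), Plin1 (1.85 FPKM) and Cfd (6.38 FPKM) were also highest in that library, against at most 0.31, 0.16 and 1.23 FPKM in the others. The 8 fat markers summed to 15.2 and 46.8 FPKM in Cdk8Tg and 20.1 and 17.1 FPKM in WT, with 0 of the 3 that passed the filter called, and 0 at an unadjusted p under 0.05. Cidea gave most of each sum, with 14.8 and 24.8 FPKM in Cdk8Tg and 17.6 and 16.9 FPKM in WT. Retn (0.807 FPKM in WT replicate 1) and Elovl3 (0.077 FPKM in WT replicate 2) were instead highest in a WT library. Atrial markers also varied between libraries of a group. The 6 atrial markers summed to 915 and 2513 FPKM in Cdk8Tg and 720 and 267 FPKM in WT. Nppa alone had 780 and 2072 FPKM in Cdk8Tg and 395 and 199 FPKM in WT. Like Nppa, Myl4 (281 FPKM) and Myl1 (96.7 FPKM) were highest in Cdk8Tg replicate 2. Myl7 (136 FPKM) and Sln (43.8 FPKM) were instead highest in WT replicate 1. Bmp10 was at 0 in all 4 libraries, and Nppa, which ventricles also express, was the 1 marker called higher. Without Cdk8Tg replicate 2, the log2 ratio of muscle to general isoform differed by -1.27, -0.90 and -0.93 for subunits 6a, 7a and 8.

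The rest of complex IV fell together, with a narrower spread. Of the 7 tested subunits outside these pairs and without a tissue label, all 7 were called lower, with log2 changes of -0.80 (Cox5a) to -0.49 (Cox6b1) and a median of -0.69. Cox4i1, the ubiquitous isoform of subunit 4, had the highest mean level of the complex over the 4 libraries. It had 1711 and 1449 FPKM in Cdk8Tg and 2509 and 2560 FPKM in WT, a log2 change of -0.69 ± 0.12 (adjusted p = 0.019). Its lung isoform Cox4i2 had 11.4 and 12.1 FPKM in Cdk8Tg and 14.3 and 12.8 FPKM in WT, which was not called (-0.18 ± 0.09, adjusted p = 0.20). Cox7a2l, a relative of subunit 7a described as a factor for supercomplexes of complexes III and IV, had nearly the same level in both groups on the deposited scale. It had 263 and 239 FPKM in Cdk8Tg and 261 and 241 FPKM in WT, a log2 change of 0.00 ± 0.10 (adjusted p = 0.98), and the groups overlapped. It was at -0.15 with median-of-ratios scaling and at 0.19 with equal FPKM sums, not called in either.

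In complex II, 3 of 4 genes were called lower, with a median log2 change of -0.63. Sdhb, the iron-sulfur subunit, had 478 and 398 FPKM in Cdk8Tg and 816 and 862 FPKM in WT. It had the highest mean level and the largest fall of the complex (-0.94 ± 0.12, adjusted p = 0.0089). The membrane anchors Sdhc and Sdhd changed by -0.80 ± 0.09 and -0.47 ± 0.10 (adjusted p = 0.0075 and 0.030). Sdha, the flavoprotein that binds succinate, had 531 and 431 FPKM in Cdk8Tg and 662 and 637 FPKM in WT. Its groups did not overlap, and its log2 change of -0.44 ± 0.13 missed the threshold (adjusted p = 0.056). It passed with median-of-ratios scaling (adjusted p = 0.035). It did not pass with quantile normalization (-0.17, adjusted p = 0.31) or with equal FPKM sums (-0.24, adjusted p = 0.14).

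In complex III, 7 of 9 genes were called lower, with a median log2 change of -0.50. Uqcrc1, a core subunit, had 460 and 361 FPKM in Cdk8Tg and 714 and 748 FPKM in WT, the largest fall of the complex (-0.84 ± 0.14, adjusted p = 0.015). Its fellow core subunit Uqcrc2 had 563 and 494 FPKM in Cdk8Tg and 660 and 709 FPKM in WT and was not called (-0.37 ± 0.11, adjusted p = 0.056). The groups were apart for both core subunits. Uqcrc2 was called lower with median-of-ratios scaling (adjusted p = 0.034) and stood at -0.02 with quantile normalization (adjusted p = 0.88). The catalytic subunits Cyc1 (cytochrome c1) and Uqcrfs1 (the Rieske iron-sulfur protein) were called lower, at -0.70 ± 0.12 and -0.50 ± 0.12.

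Uqcrh, the hinge protein, had the highest mean level of complex III, with 1410 and 1198 FPKM in Cdk8Tg and 1783 and 1744 FPKM in WT. Its call was at the edge of the threshold (-0.44 ± 0.12, adjusted p = 0.0499). That call was kept with median-of-ratios scaling (adjusted p = 0.033). It was lost with quantile normalization (-0.04, adjusted p = 0.71) and with equal FPKM sums (-0.24, adjusted p = 0.12). Uqcr11, a small accessory subunit, had 1264 and 1079 FPKM in Cdk8Tg and 1499 and 1456 FPKM in WT and was not called (-0.34 ± 0.12, adjusted p = 0.088). With quantile normalization Uqcr11 turned to 0.12, not called. Cytochrome c (Cycs), the mobile carrier between complexes III and IV, had 262 and 235 FPKM in Cdk8Tg and 383 and 363 FPKM in WT, a log2 change of -0.58 ± 0.10 (adjusted p = 0.015).

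Nearly all subunits of complex V were lower. Of its 15 subunits, 14 were called lower, with a median log2 change of -0.74, and in all 15 the groups did not overlap. The SD of the log2 change across these subunits was 0.13, against 0.25 across the genes of complex II, 0.19 across those of complex III and 0.11 across the complex IV subunits outside the pairs. Within complex V it was 0.19 for the F1 head, 0.11 for the stalk and 0.058 for the Fo part. In the catalytic F1 head 4 of 5 were called lower, in the peripheral stalk 4 of 4 and in the membrane Fo part 6 of 6. The Fo subunits spanned only -0.86 (Atp5k, subunit e) to -0.70 (Atp5j2, subunit f). Atp5e, the epsilon subunit of the rotor stalk, had 681 and 594 FPKM in Cdk8Tg and 1137 and 1256 FPKM in WT, the largest fall of the complex (-0.91 ± 0.12, adjusted p = 0.0089). Atp5b, the catalytic beta subunit, was the most abundant member, with 3228 and 2616 FPKM in Cdk8Tg and 3772 and 3805 FPKM in WT. It had the smallest fall of the complex and was not called (-0.38 ± 0.14, adjusted p = 0.10), although its groups did not overlap.

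The 3 genes Atp5g1, Atp5g2 and Atp5g3 encode the same mature subunit c, which forms the ring of the rotor, and differ in their import sequences. They changed by -0.80, -0.74 and -0.77, all called lower. Atp5g3 gave 55.1% and 55.6% of their summed FPKM in Cdk8Tg and 54.4% and 55.8% in WT. Atp5g1 gave 33.7% and 31.3% in Cdk8Tg, against 33.7% and 32.4% in WT, and Atp5g2 gave 11.2% and 13.1% in Cdk8Tg, against 11.9% and 11.8% in WT. The groups overlapped in these shares for Atp5g1, Atp5g2 and Atp5g3, unlike the shares of the muscle isoforms of complex IV.

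A pair of genes carried the Atp5 prefix without being subunits. Atp5s, now named Dmac2l and known as factor B of ATP synthase, had 14.8 FPKM in both Cdk8Tg libraries and 11.7 and 11.9 FPKM in WT. It was the 1 member called higher (0.30 ± 0.08, adjusted p = 0.046), a call it lost with median-of-ratios scaling (0.16, adjusted p = 0.21). Atp5sl, now named Dmac2 and an assembly factor of complex I, had 15.8 and 14.7 FPKM in Cdk8Tg and 17.7 and 15.7 FPKM in WT and was not called (-0.12 ± 0.10, adjusted p = 0.37). Its groups overlapped.

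**Figure D4:**
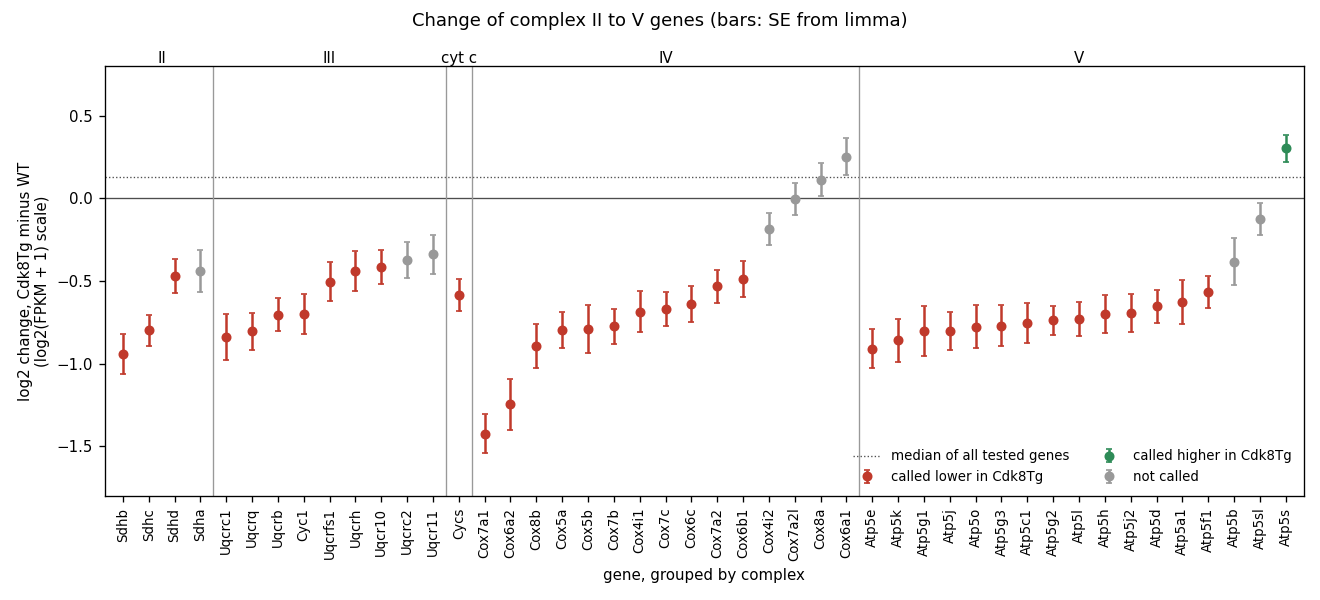
Log2 change of FPKM + 1 (Cdk8Tg minus WT) and its SE for the 46 tested members, grouped by complex. Red marks genes called lower in Cdk8Tg, green genes called higher and grey genes not called, and the dotted line is the median of all tested genes (0.13). Cox7a1 and Cox6a2 lie lowest, and Cox6a1, Cox8a and Atp5s lie above 0.

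Scaling between libraries moved the counts. With median-of-ratios scaling, which centres the median of all genes at 0.00, 38 members were called lower and 0 higher, against 11.7% of all genes called lower. With quantile normalization, which gives every library the same distribution and so limits a joint fall of the most abundant genes, 20 were called lower and 1 higher, against 8.74% of all genes called lower. In the authors' deposited table, 34 of the 47 members that were tested had a q-value under 0.05 and a lower level in Cdk8Tg, and 0 a higher one, against 8.43% of all tested genes called lower. Of the members called by limma on the deposited scale, Atp5a1 (q = 0.14), Atp5d (q = 0.59) and Atp5s (q = 0.72) were not called there. Calls over the 4 libraries depended most on the WT libraries. Without WT replicate 1 only Cox7a1 was called, and without WT replicate 2 none was, although 34 and 32 members had an unadjusted p under 0.05 in these fits, in which the lone WT library is taken to vary like the Cdk8Tg libraries, and the members' median log2 change was -0.69 and -0.67.

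Some levels are less certain because reads can come from other loci. Over 20% of the 31-base words of Atp5g2, Uqcrb, Cycs, Atp5h and Cox7c occur in other annotated genes, so that copies could share their reads, while 18 members share none. Among members below that level, Atp5o shares 18.8%, the general isoform Cox6a1 18.5% and Cox7a2l 16.6%, whereas the muscle isoform Cox6a2 shares none. For 12 members an exon of another gene lies on the opposite strand. On the same strand, Mir688 overlaps Atp5g2, and another gene entry also named Atp5o overlaps Atp5o. In the authors' deposited table the locus given for Atp5d spans 672 kb, that for Atp5j 35.9 kb and that for Cox6a2 32.4 kb, longer than the genes themselves.

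Few of the assembly factors of complexes II to IV were called in either direction on the deposited scale. Of all tested genes, 7.98% were called lower and 16.9% higher. Of 4 assembly factors of complex II, 0 were called, also at an unadjusted p under 0.05 and in the authors' deposited table. Of 6 for complex III, 0 were called, against 3 at an unadjusted p under 0.05 and 1 in the authors' deposited table, and 3 were called lower with median-of-ratios scaling. Of 23 tested factors of complex IV, 1 was called higher and 0 lower, with a median log2 change of -0.10. The riser was Cox19, which takes part in copper delivery, with 50.6 and 59.6 FPKM in Cdk8Tg and 34.1 and 28.6 FPKM in WT (0.79 ± 0.13, adjusted p = 0.014). With median-of-ratios scaling 3 of these factors were called lower and 1 higher. With equal FPKM sums 2 factors of complex II, 1 of complex III and 6 of complex IV were called, counting both directions. Of all 11888 tested genes 5552 were called at that setting, 4899 of them higher.

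Among assembly factors and partners of complex V and partners of complex IV and supercomplexes, most calls depended on the scaling. Usmg5, a small protein associated with ATP synthase, was the 1 called lower of 5 partners and assembly factors of complex V. It had 1221 and 1017 FPKM in Cdk8Tg and 1638 and 1513 FPKM in WT (-0.50 ± 0.13, adjusted p = 0.044). Of 4 partners of complex IV and supercomplexes, 3 were called lower: Higd2a (-0.53), Ndufa4 (-0.52) and Ndufa4l2 (-0.30). Higd2a, which promotes supercomplex assembly, had 116 and 95.6 FPKM in Cdk8Tg and 154 and 152 FPKM in WT. All tested genes gave 7.98% called lower, and those with a mean of at least 100 FPKM 35%. With quantile normalization Usmg5 (-0.05, adjusted p = 0.71), Ndufa4 (-0.04, adjusted p = 0.76) and Higd2a (adjusted p = 0.051) lost their calls. Ndufa4l2 kept its call there (-0.41, adjusted p = 0.030). With median-of-ratios scaling each of these genes was still called lower.

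Transcription factors and coactivators of respiratory genes were mostly not called. Over all tested genes 7.98% were called lower and 16.9% higher, with a median log2 change of 0.13. Of 19 regulators, 1 was called lower and 0 higher, with a median log2 change of 0.08. The called gene was Perm1, a muscle regulator of oxidative genes induced by PGC-1, with 63.8 and 50.2 FPKM in Cdk8Tg and 80.2 and 82.7 FPKM in WT (-0.52 ± 0.13, adjusted p = 0.039, or 0.057 with quantile normalization). Ppargc1a, which encodes PGC-1 alpha, had 23.2 and 20.6 FPKM in Cdk8Tg and 31.1 and 58.7 FPKM in WT, a log2 change of -0.94 ± 0.28 that was not called (adjusted p = 0.064). Its WT libraries stood far apart, and its groups did not overlap. Nrf1 changed by 0.06 ± 0.10, Gabpa by 0.12 ± 0.09 and Esrra by -0.36 ± 0.11, none of them called on the deposited scale. With median-of-ratios scaling 3 regulators were called lower (Perm1, Esrra and Ppargc1b) and 0 higher, against 11.7% of all genes called lower. With equal FPKM sums 7 regulators were called, counting both directions. Of all 11888 tested genes 5552 were called at that setting, 4899 of them higher.

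Most cofactor genes were not called. Of 14 genes of iron-sulfur cluster assembly, 2 were called lower and 2 higher, near the 7.98% and 16.9% of all tested genes. The largest rise was that of Fdxr, the reductase that supplies ferredoxin with electrons, with 6.43 and 7.33 FPKM in Cdk8Tg and 3.88 and 3.52 FPKM in WT (0.74 ± 0.11, adjusted p = 0.012). Lyrm4, a partner of the cysteine desulfurase, was also called higher (0.74 ± 0.09), and Bola3 was among those called lower (-0.51). Of 9 heme synthesis genes, 1 was called higher and 0 lower. It was Uros, uroporphyrinogen III synthase, with 20.2 and 19.2 FPKM in Cdk8Tg and 13.2 and 11.8 FPKM in WT (0.61 ± 0.09, adjusted p = 0.013).

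Most genes listed for adenine nucleotide exchange were called lower on the deposited scale. The list also holds the phosphate carrier Slc25a3 and the creatine kinases Ckmt2 and Ckm. Of 8 genes of adenine nucleotide exchange, 6 were called lower and 0 higher, with a median log2 change of -0.51, against 7.98% of all tested genes called lower and 35% of those with a mean of at least 100 FPKM. Ckmt2, the mitochondrial creatine kinase of striated muscle, had 1035 and 744 FPKM in Cdk8Tg and 1696 and 1665 FPKM in WT (-0.94 ± 0.17, adjusted p = 0.019). Slc25a4, the ADP/ATP carrier of heart and muscle, had 3394 and 3015 FPKM in Cdk8Tg and 6124 and 5953 FPKM in WT (-0.92 ± 0.13, adjusted p = 0.011). Its general counterpart Slc25a5 had 373 and 394 FPKM in Cdk8Tg and 338 and 303 FPKM in WT and was not called (0.26 ± 0.10, adjusted p = 0.10). With quantile normalization, 0 of the 8 were called lower and 1 higher. Slc25a4 was then at -0.21 (adjusted p = 0.23) and Slc25a5 was called higher (0.52, adjusted p = 0.016).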

How the data were processed

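RNA-seq was measured in 4 ventricle libraries, 2 per group, grouped and numbered by their sample titles. Per the labels' protocols, polyadenylated RNA was made into stranded TruSeq libraries. The submitters' processing notes name TopHat (1.0.0), the mm10 genome, Cufflinks and Cuffdiff, with no version for Cufflinks and Cuffdiff and no annotation. The authors deposited a table of FPKM per gene and library, and a Cuffdiff table with FPKM per group, a p-value and a q-value. FPKM are not counts, read depth is not given in these files, and the number of libraries limits the precision.

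Rows with a mean of at least 1 FPKM were fitted as log2(FPKM + 1) with limma 3.58.1 (R 4.3.3), using trended empirical Bayes and 2 residual degrees of freedom. This scale understates the change of genes with low FPKM. The fit was tested on simulated data. p-values were adjusted over all tested rows, and exact permutation tests compared isoform ratios. Gene lists were matched by symbol, older symbols included. Coordinates, overlaps and 31-base words came from GENCODE (GRCm38, the assembly of mm10), and promoters from RefSeq. The alternatives tried were pseudocounts, filters, scalings, variance models, a replicate block, left-out libraries and the authors' calls. The genes given with their values were both isoforms of each pair, the extremes and the most abundant member of each complex, members not called or higher, and the largest called changes of the other lists. Members and lists were chosen with earlier results of these data known. A few genes outside this rule (Ppargc1a, Nrf1, Gabpa, Esrra, Sdhc, Sdhd, Cyc1, Uqcrfs1, Lyrm4, Bola3, Slc25a4 and Slc25a5) were named after their values were seen. A gene that this rule names is not reported here.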

Additional observations from a re-analysis of the deposited data

How the results depend on the processing

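The count of members called was 37 and stayed within 1.5 times of that with other pseudocounts, a filter at 5 FPKM, equal FPKM sums, median-of-ratios scaling, other variance models and the authors' calls. It was 7 with no filter, 21 with quantile normalization, 2 with a log2 change of at least 1 in size, and 0 to 40 when single libraries were left out. Calls over all genes numbered 2958, against 1055 with no filter, 5552 with equal FPKM sums, 414 with a log2 change of at least 1, 1730 by the authors' q-value and 287 to 2380 with single libraries left out. The 9 pathway lists held 17 calls, against 5 with no filter, 29 with median-of-ratios scaling, 33 with equal FPKM sums, 0 with a log2 change of at least 1, and 0 to 21 with single libraries left out. The causes were not tested. Of all calls over all genes, 67.9% were higher, against 40.6% with median-of-ratios scaling, 48.8% with quantile normalization and 88.2% with equal FPKM sums, which moved the median log2 change of all genes to 0.30. No called member changed sign under any of these settings. The isoform ratios kept their direction under all 7 alternatives run on them, at -1.73 to -1.27 for subunit 6a, -0.997 to -0.78 for 7a and -1.12 to -0.89 for 8 with single libraries left out.

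With the replicate number as a block, 33 members were called, all lower, and 2825 genes in all. In that fit 0 of the complex V partners and assembly factors and 1 of the complex IV and supercomplex partners were called. Same-numbered libraries did not deviate together (correlation -0.03), so the numbers are not taken to pair the samples.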
